A study of Mus musculus with 6 samples.

Results

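The genes described here encode the transforming growth factor β (TGF-β), activin and bone morphogenetic protein (BMP) pathway. Members were taken by gene symbol from the protein-coding rows of the deposited table: TGF-β, BMP and growth differentiation factor (GDF) ligands, activin and inhibin subunits, their receptors, the SMAD and ID genes, the latent TGF-β binding proteins, and Fst, Grem1, Nog and Bambi. The symbol rule itself uses no measured value, though earlier results of these data were known when it was chosen, and it gave 61 genes of 54532 in the table. RNA captured on poly-T beads was sequenced from pancreatic islets of mice at 7 weeks of age, in 3 libraries per group, and every library pooled the islets of 3 mice. Controls were labelled Wtapflox/flox, and the compared libraries Wtap-βKO, a deletion of the RNA methylation cofactor gene Wtap meant for β cells. The labels name no Cre driver and do not say whether the controls carried one, and the libraries hold every islet cell type rather than sorted β cells.

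Ligands of this family are secreted as dimers, many of them in latent form, and bind a pair of type II and a pair of type I receptor kinases. TGF-β and activin signal through the type I receptors TGFBR1, ACVR1B and ACVR1C to SMAD2 and SMAD3, whereas BMPs signal through ACVRL1, ACVR1, BMPR1A and BMPR1B to SMAD1, SMAD5 and SMAD9. Both kinds of activated SMAD join SMAD4 and act in the nucleus, SMAD6 and SMAD7 hold the signal back, and the ID genes are classic BMP targets. In islets the pathway is known for its part in endocrine differentiation, β-cell maturity and insulin secretion.

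The pathway went in both directions. Ltbp2, Bmp1, Tgfbr1, Acvr1c and Smad1 fell in the libraries labelled Wtap-βKO, and Bambi, Ltbp3, Bmp6, Bmp3 and Acvr2b rose. Among these 10 the largest fall was that of Ltbp2, 8.62-fold, and the largest rise that of Bambi, 2.02-fold, with 3 libraries on each side. FPKM is fragments per kilobase of gene, scaled to a library size described below, a level that can be compared between genes. Of the 61 members, 6 had no read in any library (Gdf1, Gdf2, Gdf5, Gdf6, Bmp10 and Inhbc). A further 18 were under a mean of 0.5 FPKM, and 37 were tested with limma on log2(FPKM + 1). Fold changes on the log2 scale therefore understate the change of genes at low levels, while plain folds are ratios of mean FPKM, and a threshold of 0.05 was set on the adjusted p. Of the 37 tested, 10 passed, 5 higher and 5 lower, against 20.1% of all 15927 genes tested, 8.77% higher and 11.3% lower, and against 22.2% of protein-coding genes. Scaled to total recovered reads, the split was 8 higher and 4 lower, against 14.7% of all genes higher and 6.87% lower under that scaling. An unadjusted p under 0.05 was reached by 16 of the 37, against 34.9% of all genes. A change of at least 2-fold that passed was seen for 3 members, Ltbp2, Acvr1c and Bambi, against 3.68% of all genes. The median log2 fold change was 0.13 for the 37 members and -0.01 for all tested genes. Ltbp2 reached the level for testing through its control values alone and Ltbp1 through the other group, so these counts and medians describe the members and support nothing further.

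**Figure D1:**
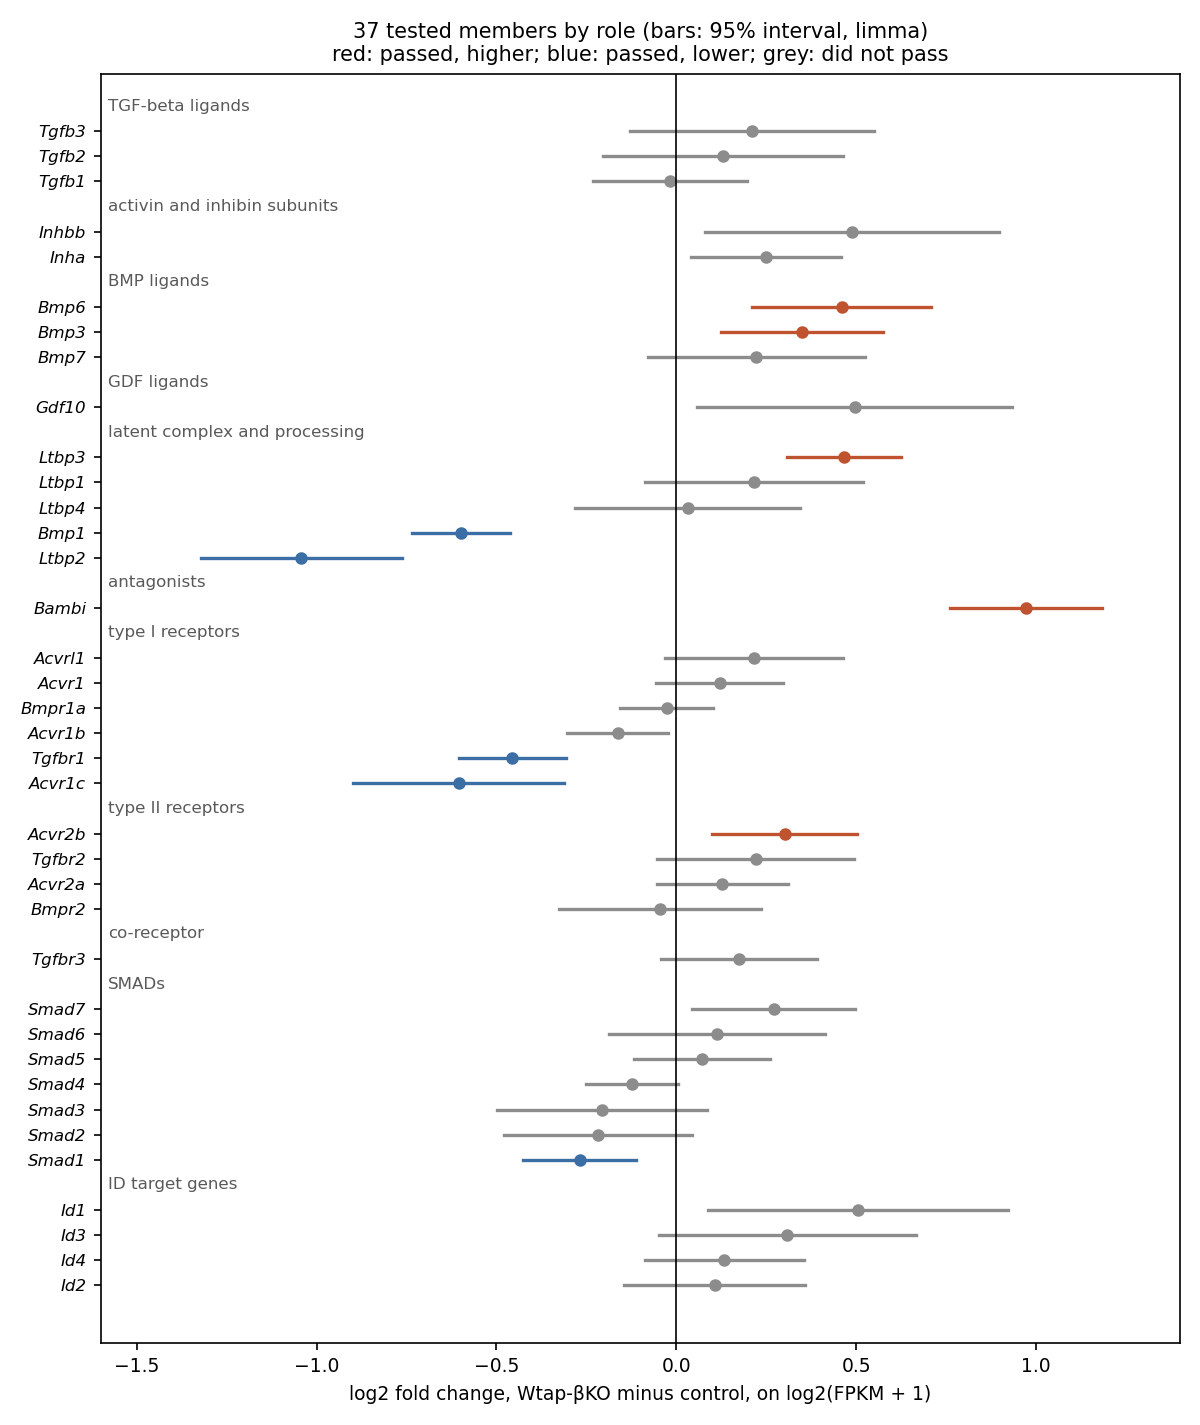
Log2 fold change (libraries labelled Wtap-βKO minus controls, on log2(FPKM + 1)) of the 37 tested members, ordered by role, with 95% intervals from limma. The intervals of Bambi at the high end (0.76 to 1.18) and Ltbp2 at the low end (-1.32 to -0.76) lie farthest from 0, and Bmpr1a, Tgfb1 and Ltbp4 sit close to it.

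The libraries held between 16353297 and 18682745 recovered reads. The library size implied by the deposited FPKM was 0.952 to 0.988 of the recovered reads in controls. In the libraries labelled Wtap-βKO it was 1.04 to 1.07 of them, so the deposited scaling differed from total reads by group. Wtap itself was at 10.5, 11.4 and 11.6 FPKM in controls and at 11.2, 11.9 and 12.3 in the libraries labelled Wtap-βKO. This sum over all exons and all cell types was not lower, so directions are those of the labels. Islet identity was clear from the 10 β-cell markers, whose summed level was 134489 to 154702 FPKM in controls and 81580 to 92206 in the other group, with 8 of 10 lower. Of 7 α-cell and 4 δ-cell markers 5 and 3 were higher (summed 21263 to 25473 against 33828 to 44689, and 3946 to 4312 against 5607 to 8273 FPKM). Of 9 tested mesenchymal markers 5 were higher (summed 49.98 to 60.6 against 73.0 to 84.3 FPKM), and of 10 endothelial markers 2 (182 to 219 against 218 to 248 FPKM). Of 8 tested macrophage, 6 acinar and 7 ductal markers 1 each was higher. Their summed levels were 102 to 112 against 120 to 134, 85.1 to 155 against 153 to 218, and 129 to 144 against 146 to 196 FPKM, so the macrophage and ductal sums did not overlap between groups. Of 5 tested glial markers none passed by limma, with 1 at an unadjusted p under 0.05 (summed 5.87 to 7.93 against 7.73 to 9.38 FPKM). No marker on any of these lists was at 0 in all 6 libraries. Most of the β-cell sum came from Ins1, Ins2 and Iapp (control means 42913, 89397 and 13167 FPKM). Of these Ins1 passed, while Ins2 and Iapp did not (limma adjusted p = 0.190 and 0.935). Most of the α-cell sum came from Gcg (control mean 22504 FPKM), which did not pass (limma adjusted p = 0.0890). In bulk islets fewer cells of a type and less RNA per cell cannot be told apart, and the part of cell makeup in the results below was not tested.

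Upstream sequences are shown for the matrix protein genes Ltbp2 and Ltbp3, which went in opposite directions, and for the receptor gene Tgfbr1, because these 3 genes passed in every alternative and their windows could be shown clear of the transcribed region of the gene itself. RefSeq (GRCm38.p6) gave a start site for 43 of the 61 members. Each line is the genome strand of the gene, 5′ to 3′, ending at the base before the annotated start or, for Ltbp2, before the gene model of the deposited table. Capitals mark CAGAC or its reverse complement GTCTG, the short SMAD box, and GGCGCC, a GC-rich site known for SMAD binding. The windows are chr12:84876533-84876741 on the minus strand for Ltbp2, chr4:47352972-47353221 on the plus strand for Tgfbr1, and chr19:5740650-5740899 on the plus strand for Ltbp3.
Ltbp2: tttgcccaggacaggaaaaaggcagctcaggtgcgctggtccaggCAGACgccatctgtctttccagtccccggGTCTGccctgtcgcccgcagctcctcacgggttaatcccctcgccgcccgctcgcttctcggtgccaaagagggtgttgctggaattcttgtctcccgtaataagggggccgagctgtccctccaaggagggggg
Tgfbr1: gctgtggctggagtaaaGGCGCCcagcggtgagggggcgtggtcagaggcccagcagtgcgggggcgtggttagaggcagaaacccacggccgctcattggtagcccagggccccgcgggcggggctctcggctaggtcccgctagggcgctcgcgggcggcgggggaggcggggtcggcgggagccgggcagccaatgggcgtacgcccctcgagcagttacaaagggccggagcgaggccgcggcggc
Ltbp3: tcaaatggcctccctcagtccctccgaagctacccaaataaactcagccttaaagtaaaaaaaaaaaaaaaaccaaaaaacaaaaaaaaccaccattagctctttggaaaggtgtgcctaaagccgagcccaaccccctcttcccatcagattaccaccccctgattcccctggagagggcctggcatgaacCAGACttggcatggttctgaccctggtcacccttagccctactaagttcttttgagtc

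The Ltbp2 window held 2 SMAD boxes and no GC-rich site, the Tgfbr1 window 1 GC-rich site and no SMAD box, and the Ltbp3 window 1 SMAD box. Both motifs were searched on both strands and did not overlap each other in these windows. Over the 250 bases upstream of all 32851 annotated starts in the table, 42.2% held a SMAD box and 9.59% the GC-rich site. Of the 43 members with a window, 20 held the first and 7 the second. The Tgfbr1 window had 29 CpG dinucleotides, the Ltbp2 window 16 over its full 250 bases, and the Ltbp3 window 2, against a median of 6 over all windows. These matches describe letters and say nothing of binding. The Ltbp2 window lies inside D030025P21Rik, a noncoding gene on the opposite strand.

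Of the 5 latency and processing genes 1 rose and 2 fell. LTBPs are matrix proteins of the fibrillin superfamily, and LTBP1, LTBP3 and LTBP4 bind latent TGF-β, whereas LTBP2 does not form that complex. Ltbp2 (chromosome 12, 84783212 to 84876532, minus strand, GRCm38) was at 1.22, 1.52 and 1.46 FPKM in the 3 controls, and 0.201, 0.13 and 0.156 FPKM in the group labelled Wtap-βKO. Every control was far above every library of the other group. The totals behind this were 583 reads against 72, a log2 fold change of -1.04 with SE 0.12 and a limma adjusted p = 0.00215. D030025P21Rik also shares exon sequence with Ltbp2, and it had 9, 21 and 13 reads in controls and 0 in each of the others. Without strand information, reads of this pair cannot be told apart.

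Ltbp3 (chromosome 19, 5740904 to 5758532, plus strand) moved the other way. It was at 23.5, 23.0 and 20.7 FPKM in controls and at 32.4, 29.9 and 31.7 in the libraries labelled Wtap-βKO. The groups were well apart, with a 1.4-fold rise (log2 fold change 0.47 with SE 0.07 and a limma adjusted p = 0.00492). The summed mesenchymal markers given above were higher in the same libraries as Ltbp3, and their part in its rise was not tested.

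Bmp1 encodes a metalloprotease that matures procollagen and frees ligands from inhibitors, not a BMP ligand. It lies on chromosome 14, 70474558 to 70520234, minus strand. Its level was 17.5, 17.7 and 17.6 FPKM in controls, one of the tightest groups among the members, and 10.6, 11.9 and 11.4 in the libraries labelled Wtap-βKO. Mean FPKM fell from 17.6 ± 0.0691 to 11.3 ± 0.620 (SD, n = 3 each), 1.56-fold (log2 fold change -0.60 with SE 0.06 and a limma adjusted p = 0.00121). Ltbp4 was at 15.8, 13.8 and 16.8 FPKM in controls and 18.1, 12.8 and 16.8 in the others. These ranges overlapped, and the 95% interval of the log2 fold change ran from -0.28 to 0.34. Ltbp1 was low, at 0.490, 0.411 and 0.295 FPKM in controls and 0.709, 0.597 and 0.564 in the others. Its groups did not overlap, but the difference did not pass (limma adjusted p = 0.277, with a range of 0.0387 to 0.503 under other settings).

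**Figure D2:**
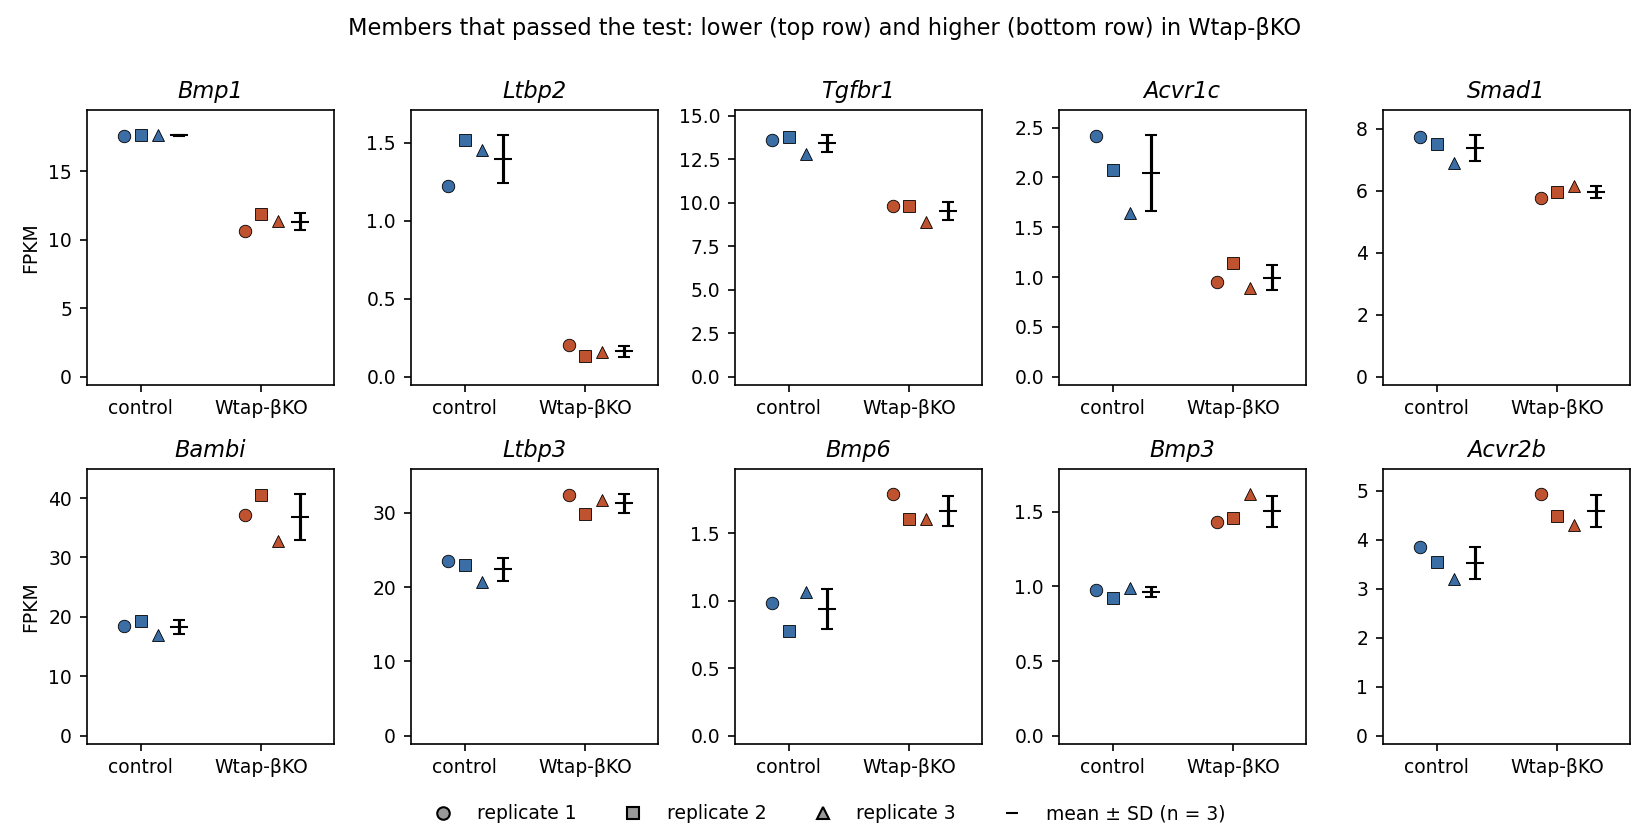
FPKM of each of the 10 members that passed the test, one panel per gene, with replicates 1 to 3 as circle, square and triangle and the mean ± SD (n = 3) beside them. The top row holds the 5 lower members and the bottom row the 5 higher ones, and in each panel all libraries of one group lie on one side of the other.

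The extracellular and membrane antagonists were led by Bambi, a pseudoreceptor that resembles a type I receptor without the kinase domain and dampens TGF-β and BMP signals. Bambi (chromosome 18, 3507957 to 3516404, plus strand, as the deposited table gives it) was at 18.5, 19.3 and 16.9 FPKM in controls and at 37.2, 40.6 and 32.7 in the libraries labelled Wtap-βKO. The lowest of the latter was well above the highest control. Mean FPKM rose from 18.2 ± 1.2 to 36.8 ± 3.92 (SD, n = 3 each; log2 fold change 0.97 with SE 0.09 and a limma adjusted p = 0.00104), the smallest adjusted p among the 37 members.

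Nog, which encodes the BMP-binding antagonist noggin, was too low for the main test. It had 3, 0 and 0 reads in controls and the group labelled Wtap-βKO had 33, 6 and 37. Most of its reads thus came from replicates 1 and 3, with replicate 2 nearer the controls. The ratio of read rates was 24.0 (exact 95% interval 7.90 to 119, for counting error only). Fitted without a filter on low values, its log2 fold change of 0.77 did not pass (limma adjusted p = 0.121). Fst, encoding the activin-binding protein follistatin, had 11 reads in controls and 25 in the others, 16 of them in replicate 3, and the BMP antagonist gene Grem1 had 4 and 5, too few to compare.

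TGF-β ligand genes were low and did not pass. Tgfb1, encoding the most broadly expressed isoform, was at 2.11, 2.17 and 2.49 FPKM in controls and 2.11, 2.10 and 2.43 in the libraries labelled Wtap-βKO, so the groups covered the same range (95% interval of the log2 fold change -0.23 to 0.20). Tgfb2 was at 1.36, 1.04 and 1.38 FPKM in controls and 1.65, 1.07 and 1.73 in the others, and Tgfb3 at 0.721 ± 0.136 and 0.999 ± 0.271 (SD, n = 3 each). For both, replicate 2 labelled Wtap-βKO lay within the control range and replicates 1 and 3 above it.

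Among activin and inhibin subunits Inha stood out by level. It encodes the α subunit, which forms inhibin with a β subunit and so opposes activin. Inha was at 44.5, 52.3 and 46.1 FPKM in controls and 60.6, 58.7 and 51.2 in the others, the highest mean of all members. The groups overlapped through control replicate 2 and replicate 3 labelled Wtap-βKO, and the difference did not pass (log2 fold change 0.25 with SE 0.09 and a limma adjusted p = 0.0919, with a range of 0.0324 to 0.239 under other settings). Inhbb, the βB subunit of activin B, was at 0.979, 1.1 and 1.49 FPKM in controls and 1.65, 1.79 and 2.88 in the others. These groups did not overlap, yet the spread was wide and the 1.77-fold difference missed the threshold (limma adjusted p = 0.0919, with a range of 0.0331 to 0.222 under other settings).

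Inhba, the βA subunit of activin A, pointed the other way at low depth. It had 48, 37 and 53 reads in controls and 21, 26 and 41 in the group labelled Wtap-βKO, with 1 overlapping library. The ratio of read rates was 0.604 (exact 95% interval 0.457 to 0.794, for counting error only), and fitted without a filter its difference did not pass (limma adjusted p = 0.280). Inhbe had 0 reads in controls and 6 in the others, 5 of them in replicate 3.

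BMP ligand genes were all low, and of 3 tested 2 rose. Bmp6, which in other tissues signals iron load, was at 0.98, 0.779 and 1.07 FPKM in controls and 1.80, 1.6 and 1.61 in the libraries labelled Wtap-βKO. Its groups were apart, and the 1.77-fold rise passed (log2 fold change 0.46 with SE 0.11 and a limma adjusted p = 0.0243). The call was lost without control replicate 1 or 2 or replicate 1 or 3 labelled Wtap-βKO, with adjusted p from 0.0641 to 0.0746. Txndc5, a far more abundant gene on the opposite strand that shares exon sequence with Bmp6, was at 54.9, 55.2 and 51.7 FPKM in controls and 56.9, 51.0 and 55.7 in the others, so it did not move with Bmp6.

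Bmp3, an atypical family member that opposes other BMPs, was at 0.98, 0.924 and 0.988 FPKM in controls and 1.43, 1.46 and 1.62 in the others. The groups were narrow and apart, 1.56-fold higher (log2 fold change 0.35 with SE 0.10 and a limma adjusted p = 0.0428). That call was lost when any 1 of the 6 libraries was left out (adjusted p 0.0636 to 0.127). Quantile normalization, no filter on low values and the replicate number as a block each ended it as well. Bmp7 was at 0.546 ± 0.129 and 0.803 ± 0.115 FPKM (SD, n = 3 each) and did not pass (limma adjusted p = 0.261).

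Bmp2, a strong activator of the BMP branch, fell short of the level for testing. Its reads were 8, 3 and 7 in controls and 23, 20 and 41 in the libraries labelled Wtap-βKO. No library of one group reached the other, and the ratio of read rates was 4.42 (exact 95% interval 2.63 to 7.81, for counting error only), while the fit without a filter gave limma adjusted p = 0.0845. Bmp4 had 21 and 34 reads in all and Bmp5 had 35 and 51, with exact 95% intervals of their ratios that include 1 (0.864 to 2.78 and 0.880 to 2.18). Bmp8a, Bmp8b and Bmp15 had at most 8 reads in either group.

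Of the GDF genes Gdf10, a BMP3-related ligand, was the one that reached the test. It was at 1.24, 0.668 and 0.734 FPKM in controls and 1.22, 1.5 and 2.27 in the others, overlapping through replicate 1 of both groups, and did not pass (log2 fold change 0.50 with SE 0.18 and a limma adjusted p = 0.105, with a range of 0.0294 to 0.254 under other settings). Gdf11 was just under the level for testing, as Ltbp1 was just over it, and had 27, 36 and 33 reads in controls and 17, 34 and 42 in the others. The stress-induced Gdf15 had 41 and 40 reads. Gdf9 had 14 and 25, and Gdf3 and Gdf7 had at most 6 in either group.

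**Figure D3:**
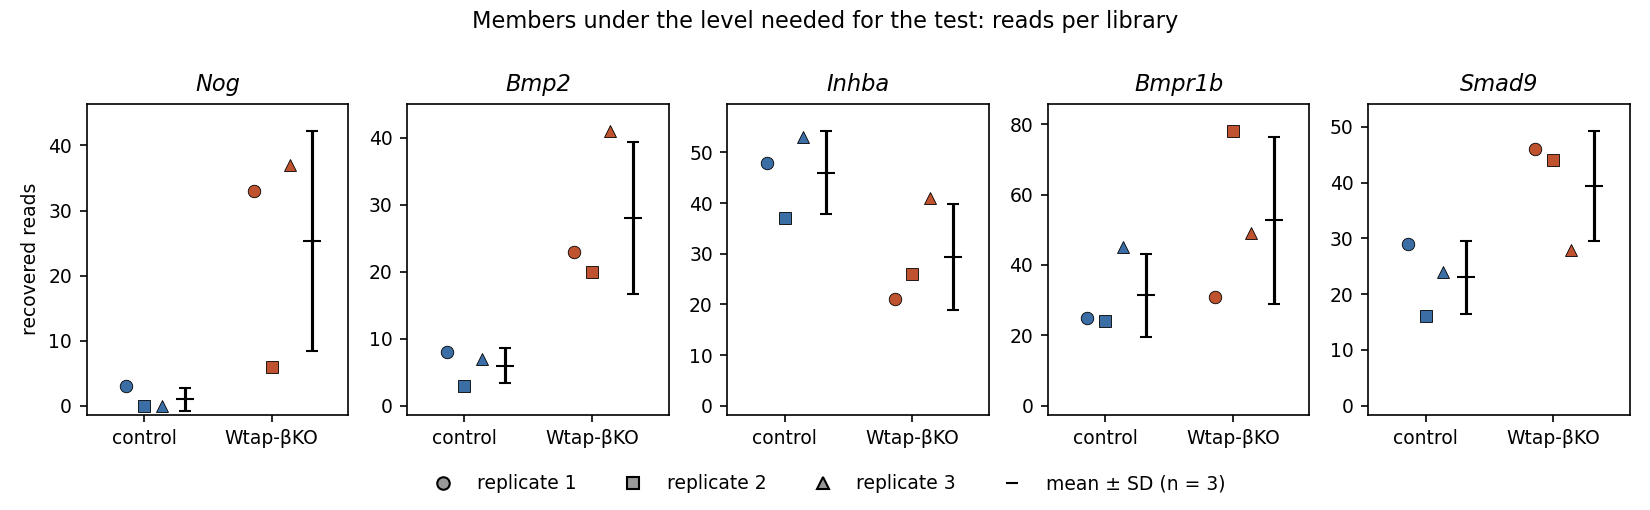
Recovered reads per library (vertical axis) of 5 members under the level for testing, with replicates 1 to 3 as circle, square and triangle and the mean ± SD (n = 3). Nog and Bmp2 lie higher in all 3 libraries labelled Wtap-βKO (6 to 37 and 20 to 41 reads) than in controls (0 to 3 and 3 to 8), while the groups of Inhba, Bmpr1b and Smad9 overlap.

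Of the 3 type I receptor genes of the SMAD2 and SMAD3 branch 2 fell. Tgfbr1, the TGF-β type I receptor (chromosome 4, 47353222 to 47414931, plus strand), was at 13.6, 13.8 and 12.8 FPKM in controls and 9.81, 9.78 and 8.91 in the libraries labelled Wtap-βKO. Each group was tight and they were clearly apart. The fall was 1.41-fold (log2 fold change -0.46 with SE 0.06 and a limma adjusted p = 0.00427). Acvr1c, encoding ALK7, a receptor for activin B, nodal and some GDFs that is enriched in fat and islets, lies on chromosome 2, 58267453 to 58357895, minus strand. It was at 2.41, 2.08 and 1.65 FPKM in controls and 0.953, 1.14 and 0.892 in the others. All controls were higher, although they were spread among themselves, and the fall was 2.06-fold (log2 fold change -0.61 with SE 0.12 and a limma adjusted p = 0.0172). The call was lost without control replicate 1 or 2 or replicate 1 or 3 labelled Wtap-βKO, with adjusted p from 0.0528 to 0.0601. The call of Acvr1c was also lost without a filter on low values. Gm13544 on the opposite strand shares exon sequence with Acvr1c and had 2, 10 and 5 reads in controls and 2, 1 and 3 in the others, few beside the 970 and 499 of Acvr1c.

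Acvr1b, the main activin type I receptor gene, was at 15, 14.6 and 13.6 FPKM in controls and 13, 12.7 and 12.5 in the others. The groups did not overlap, but the 1.13-fold difference did not pass (limma adjusted p = 0.0966, with a range of 0.0741 to 0.584 under other settings). Summed over Tgfbr1, Acvr1b and Acvr1c, the level was 31.1, 30.5 and 28.0 FPKM in controls and 23.8, 23.6 and 22.4 in the libraries labelled Wtap-βKO.

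None of the 3 tested type I receptor genes of the BMP branch passed by limma or by limma voom, and 0 of them had an unadjusted p under 0.05. With the untested Bmpr1b their summed level was 28.0, 28.4 and 29.6 FPKM in controls and 30.5, 29.4 and 30.8 in the others, so the groups overlapped. Bmpr1a, the most abundant of them, was at 16.5, 17.0 and 16.9 FPKM in controls and 17.3, 16.3 and 15.9 in the others, overlapping, with a 95% interval of the log2 fold change from -0.16 to 0.10. Acvr1 (6.24 ± 0.268 and 6.89 ± 0.552) and the endothelial receptor gene Acvrl1 (5.38 ± 0.728 and 6.39 ± 0.613 FPKM; SD, n = 3 each) did not pass, with adjusted p of 0.293 and 0.192 by limma. The summed endothelial markers above were also higher in mean in the libraries where Acvrl1 was. Bmpr1b was under the level for testing, at 94 reads against 158, of which 78 were in replicate 2 labelled Wtap-βKO.

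**Figure D4:**
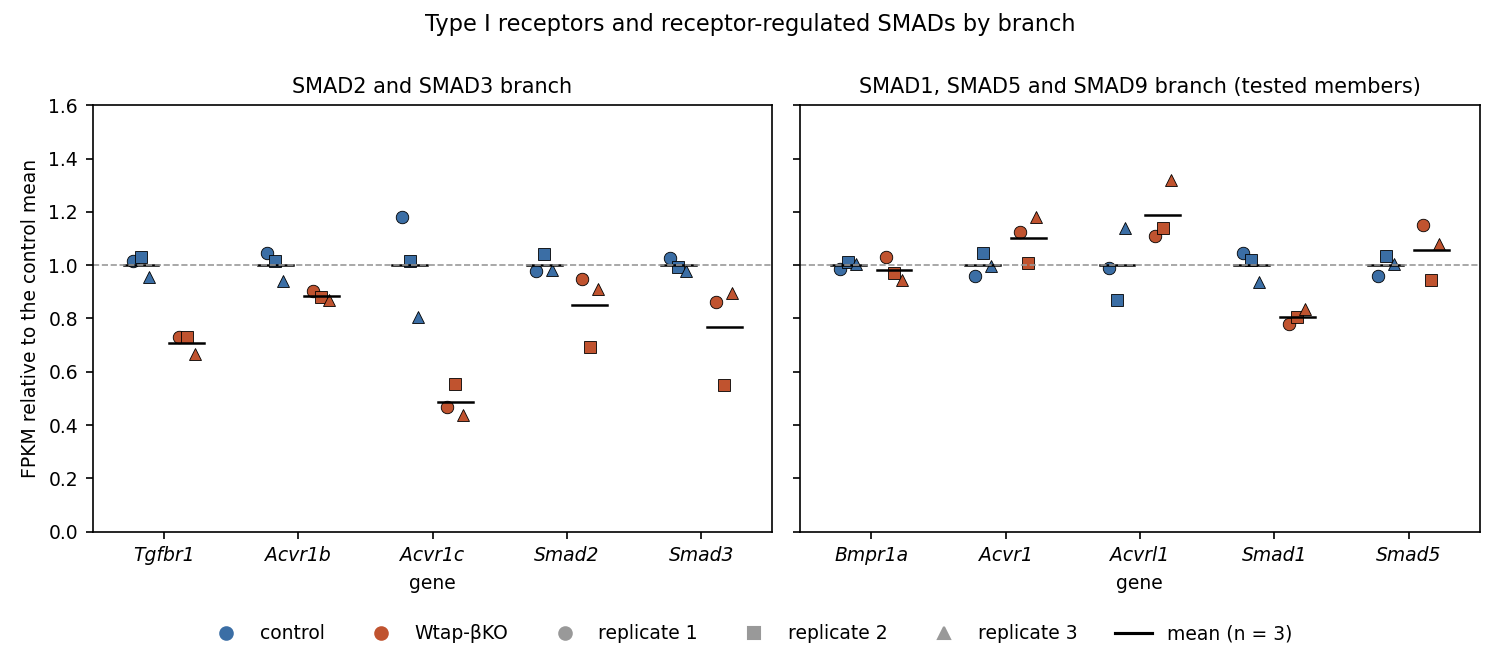
FPKM of type I receptor and receptor-regulated SMAD genes divided by the mean of the controls of that gene (vertical axis), for the SMAD2 and SMAD3 branch (left) and the tested genes of the SMAD1, SMAD5 and SMAD9 branch (right). Points are libraries, shapes are replicates and lines are means (n = 3). With FPKM as deposited, every library labelled Wtap-βKO lies under every control of the same gene in the left panel. In the right panel that holds for Smad1 alone.

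Of the 4 type II receptor genes 1 passed. Acvr2b, an activin type II receptor gene (chromosome 9, 119402118 to 119434995, plus strand), was at 3.85, 3.55 and 3.19 FPKM in controls and 4.94, 4.48 and 4.31 in the libraries labelled Wtap-βKO. It rose 1.30-fold with groups apart (log2 fold change 0.30 with SE 0.09 and a limma adjusted p = 0.0487), just inside the threshold. Leaving out any 1 of the 6 libraries ended the call (adjusted p 0.0663 to 0.138). Quantile normalization, no filter on low values and no variance trend each ended it as well. Acvr2a, the more abundant activin type II receptor gene, was at 8.18, 7.69 and 7.66 FPKM in controls and 9.23, 7.78 and 9.06 in the others, with overlap through replicate 2, and did not pass (limma adjusted p = 0.284). Bmpr2 was at 4.48, 4.11 and 4.39 FPKM in controls and 4.81, 3.32 and 4.48 in the others, with replicate 2 lowest of all 6. Tgfbr2 was at 2.67, 2.64 and 2.58 FPKM in controls and 2.83, 4.02 and 2.95 in the others, with replicate 2 highest of all 6. Neither passed (limma adjusted p = 0.820 and 0.223), and without that replicate the log2 fold change of Tgfbr2 went from 0.22 to 0.10. The co-receptor gene Tgfbr3, betaglycan, was at 3.66, 4.07 and 3.80 FPKM in controls and 4.83, 4.74 and 3.88 in the others, overlapping through replicate 3 of the latter (limma adjusted p = 0.223).

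Of the SMAD genes Smad1 was the one that passed. Smad1 (chromosome 8, 79338395 to 79399518, minus strand), a BMP-branch SMAD, was at 7.73, 7.52 and 6.90 FPKM in controls and 5.76, 5.96 and 6.16 in the libraries labelled Wtap-βKO. The groups were apart by a small margin and the fall was 1.24-fold (log2 fold change -0.27 with SE 0.07 and a limma adjusted p = 0.0318). The call was lost without any single library except control replicate 3 (adjusted p 0.0526 to 0.109). Scaling to total recovered reads also ended it (log2 fold change -0.17, limma adjusted p = 0.134). So did no filter on low values and the replicate number as a block. Smad5, of the same branch, was at 12, 13 and 12.6 FPKM in controls and 14.4, 11.8 and 13.5 in the others, so the groups overlapped (limma adjusted p = 0.571). Smad9 was under the level for testing, with 69 and 118 reads and overlapping groups.

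Smad2 and Smad3, the TGF-β and activin SMAD genes, had lower values in every library labelled Wtap-βKO than in any control, without passing. Smad2 was at 8.54, 9.10 and 8.57 FPKM in controls and 8.30, 6.04 and 7.94 in the others (limma adjusted p = 0.209). Smad3 was at 1.30, 1.26 and 1.24 FPKM in controls and 1.09, 0.695 and 1.13 in the others (limma adjusted p = 0.282). In both genes replicate 2 lay farthest from the controls. Without it the log2 fold changes went from -0.22 to -0.09 and from -0.21 to -0.10. The shared partner Smad4, the most abundant SMAD gene, was at 21.7, 22.9 and 21.7 FPKM in controls and 19.7, 20.0 and 21 in the others (log2 fold change -0.12, limma adjusted p = 0.155). With FPKM as deposited, all 5 receptor and SMAD genes of the SMAD2 and SMAD3 branch thus had groups apart in the lower direction, 2 of them passing. Of the 5 tested genes of the BMP branch 1 had groups apart that way. Over all genes tested 22.1% had groups apart in the lower direction, and 9 of the 37 members did. In either direction it was 41.3% of all genes and 20 of the 37. These shares are for FPKM as deposited, and scaled to total recovered reads the groups of Acvr1b and of Smad2 overlapped. This grouping by branch was made after the values were seen, and whether the branches differ was not tested.

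Neither of the inhibitory SMAD genes, themselves induced by the pathway, passed. Smad7 was at 4.85, 4.09 and 4.02 FPKM in controls and 5.03, 6.05 and 5.17 in the group labelled Wtap-βKO. The groups were apart by a small margin without passing (log2 fold change 0.27, limma adjusted p = 0.0909, and 0.0413 when scaled to total recovered reads). Smad6 was at 2.66 ± 0.579 and 2.93 ± 0.179 FPKM (SD, n = 3 each; limma adjusted p = 0.566), and its direction turned in 1 of 16 alternatives.

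ID genes encode helix-loop-helix proteins without a DNA-binding domain that block other factors of that class. All 4 had a positive log2 fold change and none passed by limma, with 1 of 4 at an unadjusted p under 0.05 and 1 of 4 by limma voom on recovered reads, Id1 in both cases. Across all genes limma voom passed 25.7%. Id1 was at 9.40, 8.13 and 10.4 FPKM in controls and 11.2, 18.2 and 12.2 in the libraries labelled Wtap-βKO, and Id3 at 11.2, 9.79 and 9.26 against 10.6, 16.2 and 11.9. In both genes replicate 2 stood well above the other 5 libraries. The log2 fold change of Id1 was 0.50 (limma adjusted p = 0.0887, with a range of 0.0428 to 0.228 under other settings, 3 of which called it) with it and 0.30 without it (0.0959), and that of Id3 was 0.31 (0.194) and 0.14 (0.337). Id2 was at 4.84 ± 0.683 and 5.28 ± 0.498 FPKM (SD, n = 3 each), with overlap. Id4 was at 1.42, 1.33 and 1.33 FPKM in controls and 1.43, 1.63 and 1.72 in the others, apart by a small margin and not passing (limma adjusted p = 0.357).

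**Figure D5:**
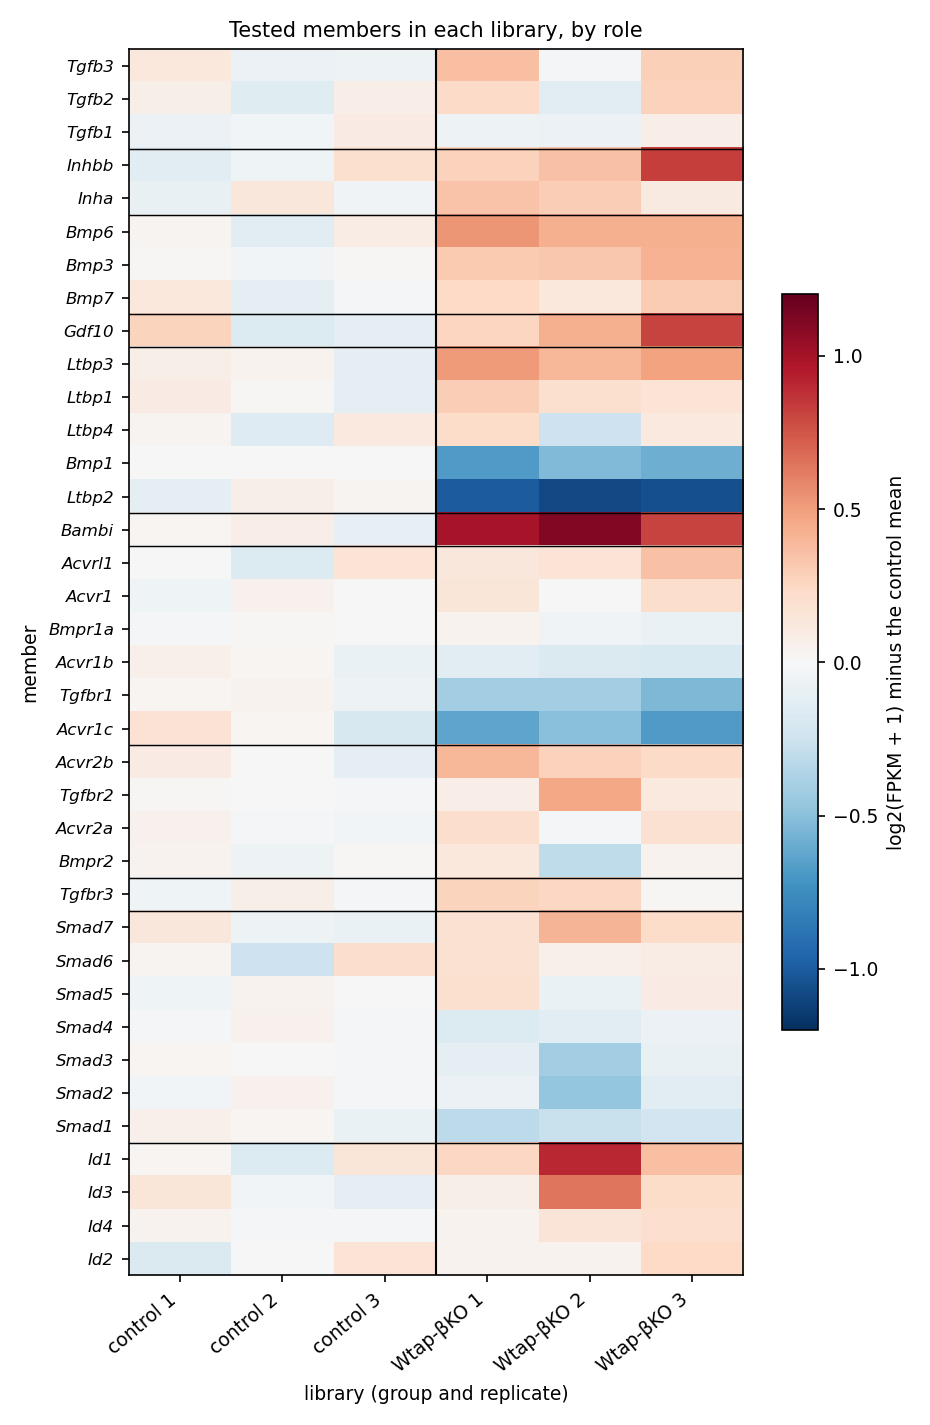
Level of each tested member in each of the 6 libraries, as log2(FPKM + 1) minus the mean of the controls (color), with horizontal lines between role groups. Ltbp2, Bmp1, Tgfbr1 and Acvr1c are low and Bambi high in all 3 libraries labelled Wtap-βKO, whereas high Id1 and Id3 and low Smad2 and Smad3 are most marked in replicate 2.

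Replicate 2 labelled Wtap-βKO was the library farthest from the other 2 of its group for 16 of the 37 tested members, against 10 for replicate 1 and 11 for replicate 3. Over all genes tested it was the farthest for 45.2%. The library also had the highest summed markers of δ cells (8273 FPKM), ductal cells (196 FPKM against 129 to 155 in the other 5), macrophages (134 against 102 to 125) and glia (9.38 against 5.87 to 8.90), and their part in its Id1, Id3, Smad2 and Smad3 values was not tested.

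Of 60 other pathway regulators (ligand traps, co-receptors, proteases and SMAD cofactors outside the symbol rule), 44 were tested. Of these 9 rose and 3 fell, against 8.77% of all genes tested higher and 11.3% lower. In either direction 27.3% of them passed, against 20.1% of all genes tested and 22.2% of protein-coding genes. The median log2 fold change was 0.06, against -0.01 for all tested genes. Eng, which passed higher (limma adjusted p = 0.0397), is also on the endothelial marker list. Dcn, which did not pass (limma adjusted p = 0.0511), is also on the mesenchymal one. Nbl1, encoding a BMP antagonist of the DAN family, was at 6.2, 4.80 and 6.94 FPKM in controls and 10.8, 12.1 and 11.8 in the libraries labelled Wtap-βKO, 1.93-fold higher with groups apart (limma adjusted p = 0.00446). The secreted protease gene Htra1 rose 2.17-fold, from 0.820 ± 0.0844 to 1.78 ± 0.251 FPKM (SD, n = 3 each; limma adjusted p = 0.0117). Bgn, the matrix proteoglycan biglycan, rose 1.75-fold (limma adjusted p = 0.0125). Zfyve9, which encodes the SMAD anchor SARA, rose 1.41-fold, the follistatin-like gene Fstl1 1.48-fold and Thbs1, encoding thrombospondin 1, an activator of latent TGF-β, 1.56-fold. These last 3 calls were each lost without control replicate 1 or 2 or replicate 1 or 3 labelled Wtap-βKO. Adjusted p by limma was then up to 0.0650, 0.0765 and 0.0966. The calls of Fstl1 and Thbs1 were also lost without a filter on low values.

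Of 36 genes known as targets of the pathway, 26 were tested. Among these 5 rose and 4 fell, against 8.77% of all genes tested higher and 11.3% lower. In either direction 34.6% of them passed, against 20.1% of all genes tested and 22.2% of protein-coding genes. Their median log2 fold change was 0.21, against -0.01 for all tested genes. Ctgf, a matricellular TGF-β target, was at 3.73, 3.25 and 3.26 FPKM in controls and 5.69, 5.27 and 6.02 in the libraries labelled Wtap-βKO, a 1.66-fold rise (limma adjusted p = 0.00399). The collagen genes Col3a1 and Col1a2 rose 2.04-fold and 1.82-fold (limma adjusted p = 0.0123 and 0.00665). Col1a1 also passed, 1.85-fold higher (limma adjusted p = 0.0138). These collagen genes are also on the mesenchymal marker list, whose sum was higher in the same libraries. The immediate early gene Junb fell 1.47-fold, from 171 ± 13.4 to 117 ± 8.40 FPKM, the cell cycle inhibitor gene Cdkn2b 1.61-fold, from 6.45 ± 0.386 to 4.0 ± 0.440, and the E-cadherin gene Cdh1 1.22-fold, from 88.6 ± 0.926 to 72.8 ± 0.879 (SD, n = 3 each; limma adjusted p = 0.00544, 0.00604 and 0.00801). The named target genes thus went in both directions at the RNA level, as the members did. The list was not split into genes that the pathway induces or represses, so its counts and median give no direction of signalling. The TGF-β feedback genes Pmepa1, of this list, and Skil, of the list of regulators, did not pass (limma adjusted p = 0.129 and 0.526). The groups of Pmepa1 were apart in the higher direction. Ldlrad4, also of this list, passed and fell 1.42-fold, from 8.73 ± 0.472 to 6.15 ± 0.755 FPKM (SD, n = 3 each, limma adjusted p = 0.0173). Pmepa1, Skil and Ldlrad4 are named here after their values were seen.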

How the data were processed

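FPKM values, 1 column per library, come from a single table that the authors deposited. Per the file headers it also gives each gene's length in bases, position and biotype. Named in the submitters' processing notes, without role or order, are featureCounts 1.5.0-p3, HISAT2 2.0.5, DESeq2 1.20.0 and CASAVA, with mm10 and GRCm38 as builds. Whether counting used strand was not given in the sources used here. Of the 61 members 59 had the same coordinates in GENCODE M21 (GRCm38), and exons of 19 of them overlap another annotated gene. FPKM multiplied by gene length was a whole multiple of 1 read within 0.01 read for 100.0% of values, which gave recovered reads.

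Here genes with a mean of at least 0.5 FPKM were fitted as log2(FPKM + 1) with limma 3.58.1 (R 4.3.3), using lmFit and then eBayes with its trend option, two-sided, adjusted by Benjamini-Hochberg over 15927 genes. FPKM was used as deposited, because a median-of-ratios factor was the same in all 6 libraries. Scripts (Python 3.11.15, pandas 2.3.3, SciPy 1.17.1, matplotlib 3.10.9) were tested on simulated data. Intervals on read ratios are exact conditional binomial ones, and cover counting error only since PCR reads are not independent molecules. The members and lists were chosen with earlier results of these data known. Values in every library are given for passing members and for the most abundant members of each role. They are also given for non-passing members with groups apart and a mean of at least 1 FPKM. Of each further list up to 6 passing genes are named by adjusted p, and any others were named after their values were seen. Motif searches used RefSeq windows. Alternatives are listed in the closing section.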

Additional observations from a re-analysis of the deposited data

How the results depend on the processing

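Bambi, Ltbp3, Ltbp2, Bmp1 and Tgfbr1 passed in every alternative in which they were tested. Against 5 members higher and 5 lower, quantile normalization gave 3 higher, scaling to total recovered reads 8 higher and 4 lower, limma voom on recovered reads 10 higher, no filter on low values 2 higher and 3 lower, and a mean of at least 5 FPKM 2 higher and 3 lower, with only 18 members tested. Leaving out 1 library gave 2 to 3 higher and 3 to 5 lower. Against 9 other regulators higher and 3 lower, no filter gave 4 higher and 0 lower, a mean of at least 5 FPKM 5 higher, quantile normalization 1 lower, scaling to total recovered reads 0 lower, no variance trend 1 lower, limma voom 5 lower and protein-coding genes alone 5 lower, and leaving out 1 library 3 to 8 higher and 0 to 3 lower. In the limma fit as reported 19 of the 44 regulators had an unadjusted p under 0.05, against 34.9% of all genes tested. Target genes numbered 5 higher and 4 lower, with 2 higher at a mean of at least 5 FPKM and 4 to 7 higher and 3 to 4 lower without 1 library. A pseudocount of 0.1 or 0.5 and rescaling without the 50 highest genes left each of these counts within 1.5 times. The cause of these shifts was not tested, apart from the fewer genes or libraries that some alternatives hold.

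The labels do not say that equal replicate numbers pair libraries, and the correlations of same-numbered deviations were 0.03, 0.04 and 0.02, although each library correlated best with its own number. With the replicate number as a block 4 members were higher and 4 lower, and 1 other regulator was lower against 3. Of 808 values for 49 named genes under alternatives, 51 lost a call, 11 gained one and 0 reversed a call. Scaling to total recovered reads moved the median log2 fold change of all genes to 0.08, and the number passing from 1397 to 2334 for all genes higher and from 1798 to 1094 for all genes lower. Of the 18 members with reads under the level for testing, 6 had at most 11 reads in all, too few for a comparison at this depth.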
